A study of Mus musculus with 24 samples.

Results

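The effect of a diet rich in palmitic acid was measured in the stroma of oral tumours whose cells carried shEGR2_38.9, 1 of the 2 hairpins against EGR2. The comparison was defined by the sample titles and sets 3 arrays of shEGR2_38.9 PA-rich against 3 arrays of shEGR2_38.9 control, 6 of the 24 arrays of the series. The tumours were orthotopic xenografts of SCC25 (cells of a human squamous carcinoma of the tongue) in immunodeficient NSG (NOD-SCID gamma) mice, and the hairpin was in the human tumour cells. Mouse messenger RNA was measured in what the labels call neural fraction cells of the stroma, which are host cells and did not carry the hairpin. Binding of human tumour RNA to the mouse probe sets was not tested. The 18 other arrays held shEGR2_40.9, shGAL and the non-targeting hairpin PLKO on the PA-rich and the control diet, with 3 arrays a group. The diet change was tested against that with shEGR2_40.9 and with PLKO. Values with shGAL are given for some genes without such a test, and all 24 arrays entered the fit. The series calls the 3 arrays of a group technical replicates, so that p-values measure only the spread between arrays, and the number of animals behind a group is not given in the sources used here. Values are log2 RMA values (background-corrected, quantile-normalized probe set summaries), each array of a replicate number is listed in the order 1, 2 and 3, and a change is the PA-rich mean minus the control mean on the log2 scale.

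EGR2 is a zinc finger transcription factor that is required for Schwann cells to form myelin. Palmitic acid is the saturated fatty acid that cells make first in lipid synthesis and take up from the diet, and it is a building block of ceramides, phospholipids and the lipids of the skin barrier. Tumour stroma also holds blood and lymphatic vessels, whose endothelial cells are wrapped by pericytes and smooth muscle and rest on a basement membrane. Stratified epithelium of the mouth and skin lies close by, where keratinocytes leave the basal layer, build the cornified envelope from cross-linked proteins and seal it with ceramides.

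Control replicate 3 of shEGR2_38.9 stood apart from the other 23 arrays. The Gapdh control probe sets read higher at the 3′ than at the 5′ end of the transcript by 0.76, where no other array exceeded 0.08, and its mean correlation with its own group was 0.978, against 0.987 to 0.997. In that array 10.05% of genes lay more than 0.5 below the mean of the other arrays of the group, against 0.034% to 2.04% in the other 23 arrays. Counts of called genes are therefore given with and without it, and a called change is given without it where that ended the call or moved the change by over 1.5 times. Replicates 1, 2 and 3 were scanned in batches 4, 1 and 3, each of which held both diets, so that every difference between arrays of the same number is a within-batch value.

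The label of the cell fraction was set against marker genes. Of the Schwann cell and glial identity genes, 11 passed the filter on dim probe sets. Among these were Erbb3, a neuregulin receptor of Schwann cells and epithelia (11.05 ± 0.03 on the PA-rich diet and 10.66 ± 0.11 on the control diet, SD, n = 3), and Sox10, the glial lineage factor (7.48 ± 0.09 and 7.44 ± 0.20 in the same order of diets). S100b, Foxd3, Fabp7, Scn7a, Pou3f1 and Gfap were dim. Keratin genes were among the brightest of the fraction, with Krt14, the basal layer keratin, at 13.21 ± 0.02 on the PA-rich diet and 13.14 ± 0.09 on the control diet (SD, n = 3). The arrays thus held keratinocyte and endothelial transcripts beside those of glia, and the fraction is called by its label only.

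Of 11844 genes tested with limma over all 24 arrays, 1640 (13.8%) were higher and 983 (8.3%) were lower on the PA-rich diet at an adjusted p below 0.05. Without control replicate 3 the counts were 1234 higher (10.4%) and 1032 lower (8.71%). Of the calls, 987 rises and 861 falls held in the same direction in both fits. A further 775 genes were called only with that array, of which 653 were rises and 122 were falls, and 418 were called only without it. The large changes were mainly falls: 223 called genes fell and 42 rose by more than 1 on the log2 scale, and 220 falls and 32 rises of that size were called in both fits. The median change over all genes tested was 0.07, and 0.05 without control replicate 3. Each change was tested against 0, and this shift was not subtracted.

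The 6 genes whose change shrank most when control replicate 3 was left out were ones in which that array read low. This choice could not pick genes whose change grew, such as Robo4 (-1.15, and -1.62 without the array). Gpx1, a glutathione peroxidase, had 11.97, 12.05 and 12.02 on the PA-rich diet, against 12.01, 11.99 and 10.67 on the control diet. Its change was 0.46 (adjusted p = 0.102) and 0.01 without the array. Itgb4, the hemidesmosome integrin, had 12.07, 12.06 and 12.09 on the PA-rich diet, against 12.15, 11.94 and 10.73 on the control diet, and its change of 0.47 became 0.03. In both genes the PA-rich arrays overlapped with control replicates 1 and 2. The RNA-binding protein gene Hnrnpab was at 0.43, and -0.01 without the array, and Crebzf at 0.69 and 0.28 (adjusted p = 0.0285 and 0.256). Pfn2, an actin-binding profilin, kept a change of 0.35 in place of 0.80 and was no longer called (adjusted p = 0.067). Inhba, the activin beta A subunit, stayed called at 0.51 in place of 0.93 (adjusted p = 0.0141).

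**Figure D1:**
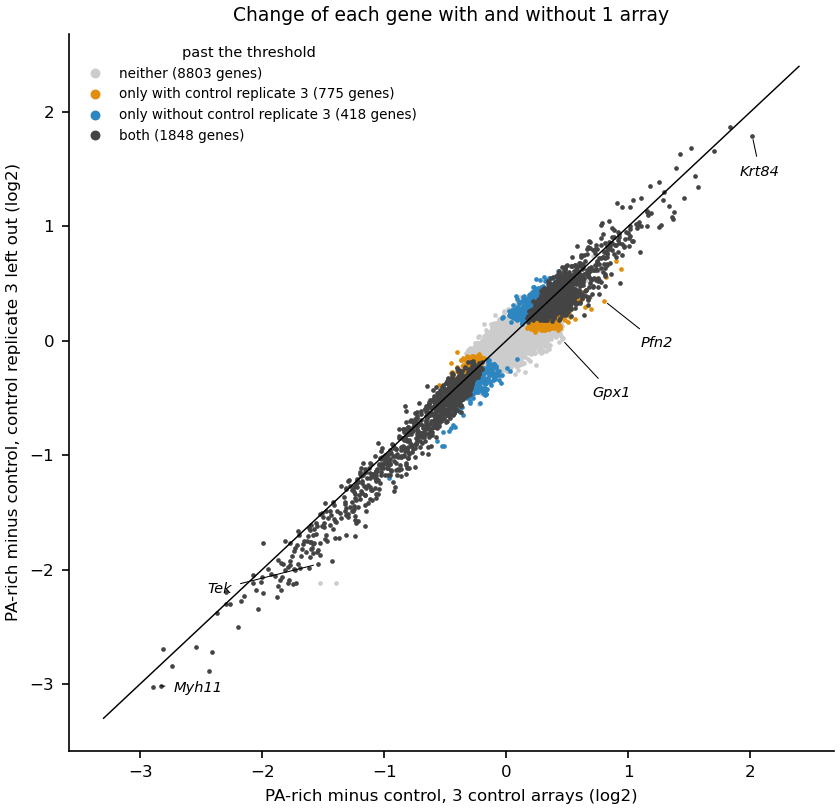
Change of each gene on the PA-rich diet with all 3 control arrays (x axis, log2) against the change with control replicate 3 left out (y axis, log2), coloured by the fits in which the gene passed the threshold, with a line at equal changes. Pfn2, one of the 775 genes called only with the array, lies at 0.80 and 0.35, while Myh11 (-2.83 and -3.02) and Krt84 (2.02 and 1.79) lie far out in both fits.

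Genes of the blood vessel wall lining were lower on the PA-rich diet almost throughout. Of 21 endothelial genes tested, 19 fell and 0 rose, with a median change of -1.26, and 20 fell without control replicate 3 (median -1.48). Pecam1, the adhesion molecule CD31 of endothelial junctions, had 9.04, 9.39 and 9.22 on the PA-rich diet, against 10.77, 10.95 and 10.78 on the control diet. The groups did not overlap, and the change was -1.62 (SE 0.21, adjusted p = 3.99e-06). Cdh5, which encodes VE-cadherin, had 10.35, 10.39 and 10.34 on the PA-rich diet and 12.03, 12.02 and 12.15 on the control diet. Its change of -1.71 (adjusted p = 5.47e-08) was again far larger than the spread within either diet. The tight junction gene Cldn5 changed by -1.57, the receptor genes Tie1, Tek and Kdr by -1.92, -1.55 and -1.54, and the transcription factor genes Sox7, Erg and Sox18 by -1.31, -1.16 and -0.64. Tek was one of the genes in which control replicate 3 lay nearest to the PA-rich arrays, with 7.01, 7.21 and 6.93 on the PA-rich diet, against 9.01, 9.01 and 7.79 on the control diet, and its change was -1.95 without that array. The members not called were Vwf, at -0.96 (adjusted p = 0.0607, and 0.0422 without control replicate 3), and Flt1, a VEGF receptor, at 0.45 (adjusted p = 0.0598), or 0.20 without that array. In RNA of whole cell fractions, fewer cells of a type and less RNA per cell cannot be told apart.

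Lymphatic genes moved with them. Of 17 tested, 12 fell and 1 rose (median -0.91), and without control replicate 3 the counts were 12 and 0. Prox1, the master transcription factor of lymphatic endothelium, had 8.02, 8.38 and 8.10 on the PA-rich diet, against 10.27, 10.75 and 9.58 on the control diet. All PA-rich arrays lay below all control arrays, with a change of -2.04 (SE 0.33, adjusted p = 8.63e-05). Flt4, which encodes VEGFR3, the receptor for the lymphatic growth factor VEGF-C, had 9.54, 9.64 and 9.51 on the PA-rich diet and 11.31, 11.52 and 10.78 on the control diet (change -1.64, adjusted p = 4.73e-06). Lyve1, the hyaluronan receptor of lymphatic capillaries, changed by -0.80 (adjusted p = 1.32e-06). Reln, a secreted glycoprotein that is made by lymphatic endothelium as well as by neurons, changed by -2.30, and Mmrn1, a multimerin of endothelial cells, by -1.81. The member called higher was Adm, the peptide adrenomedullin, at 0.28 (adjusted p = 0.0253), which was not called without control replicate 3 (adjusted p = 0.103). Calcrl, the receptor subunit for adrenomedullin and CGRP, fell by 2.30 (SE 0.21, adjusted p = 5.47e-08), with 6.74, 7.04 and 6.58 on the PA-rich diet, against 8.82, 9.35 and 9.08 on the control diet. Ramp2, its partner subunit, did not pass the test, at 0.11 (adjusted p = 0.459), and at -0.09 without control replicate 3.

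Among 19 angiogenic ligands and receptors, 9 fell (47.4%) and 2 rose (10.5%), or 10 and 1 without control replicate 3. Of all genes tested 8.3% fell and 13.8% rose, so that the share of rises was no higher in this list. Angpt2, the antagonist ligand of Tie2, had 8.60, 8.59 and 8.57 on the PA-rich diet, against 10.72, 10.91 and 10.56 on the control diet, a change of -2.15 (adjusted p = 1.78e-08). Pgf, placental growth factor, had 6.44, 6.47 and 6.42 on the PA-rich diet, against 8.37, 8.21 and 7.40 on the control diet (change -1.55, adjusted p = 9.54e-08). Control replicate 3 was the lowest control array for both ligands, and the falls stayed called without it (-2.23 and -1.85). Vegfa, the main ligand that drives vessel growth, was a member that rose, by 0.42 (adjusted p = 0.00558, and 0.0237 without control replicate 3). Among 16 Notch genes, 6 fell (37.5%) and 2 rose (12.5%), or 5 and 2 without that array. The falls included Notch4 (-1.22) and Dll4 (-0.62), the receptor and ligand of vessel endothelium, with Heyl (-0.63), a target of the pathway.

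**Figure D2:**
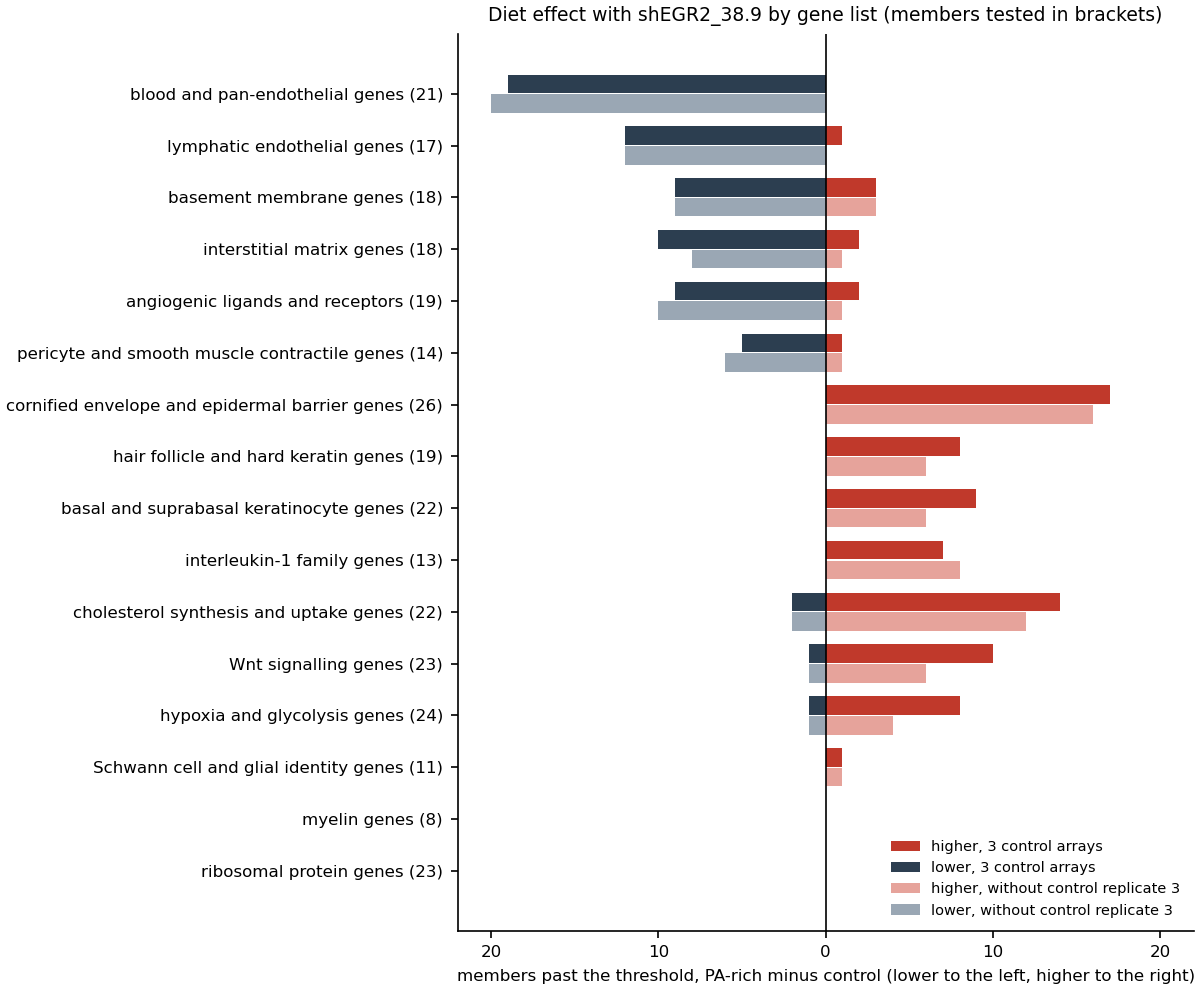
Number of members past the threshold in 16 gene lists on the PA-rich diet relative to control with shEGR2_38.9, lower to the left and higher to the right, with the members tested in brackets, dark bars for all 3 control arrays and pale bars without control replicate 3. Vessel lists lie to the left, with 19 of 21 endothelial genes, and epidermal lists lie to the right, with 17 of 26 barrier genes.

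A smaller set of smooth muscle genes fell by more. Myh11, the smooth muscle myosin heavy chain, had 7.18, 6.86 and 7.78 on the PA-rich diet, against 9.91, 10.67 and 9.72 on the control diet. Mylk, the kinase that switches on smooth muscle contraction, had 8.21, 8.16 and 8.22 on the PA-rich diet and 10.57, 11.20 and 11.25 on the control diet. Neither gene's groups overlapped, and the changes were -2.83 (SE 0.35, adjusted p = 2.99e-06) and -2.81 (SE 0.26, adjusted p = 6.22e-08). Myl9, the regulatory light chain, fell by 1.67 (adjusted p = 2.45e-06), and Acta2, smooth muscle actin, fell by 0.52 (adjusted p = 0.000116). Another Acta2 probe set was at -0.06 and was not called (adjusted p = 0.758). Of 14 pericyte and smooth muscle genes tested, 5 fell and 1 rose, and the median was -0.04. The members that did not pass the test included Cnn1 (0.10, and -0.09 without control replicate 3), Des (0.10), Lmod1 (0.08) and the pericyte receptor Pdgfrb (-0.15), whose means lay between 6.21 and 7.22 on either diet. Tpm2, a tropomyosin, was the member called higher, at 0.39, and lost that call without that array (0.15, adjusted p = 0.229), when 6 members fell and 1 rose. Crispld2, a secreted protein outside the list, moved with the contractile genes, with 7.87, 7.74 and 8.06 on the PA-rich diet, against 10.39, 11.08 and 10.43 on the control diet (change -2.74, adjusted p = 2.82e-06). The soluble guanylate cyclase subunit Gucy1a1, the nitric oxide sensor of smooth muscle, and Rgs4, a brake on G protein signalling, changed by -1.51 and -2.00.

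**Figure D3:**
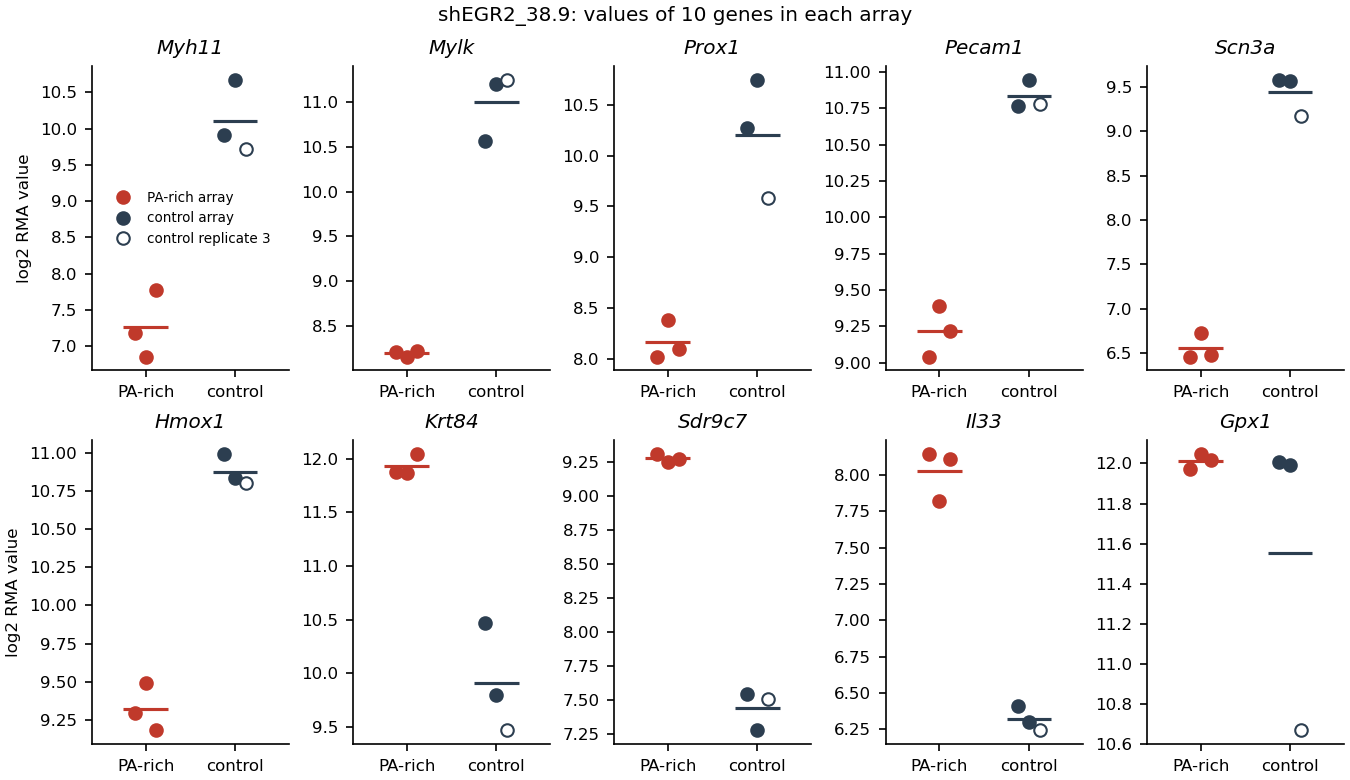
Log2 RMA values of 10 genes in each shEGR2_38.9 array, PA-rich on the left and control on the right of each panel, with bars at the group means and control replicate 3 as an open circle. The groups do not overlap in the first 9 panels, whereas for Gpx1 the control mean is set by control replicate 3 at 10.67.

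The matrix on which vessels rest was lower as well. Of 18 basement membrane genes, 9 fell and 3 rose, with the same counts without control replicate 3. Nid1, the linker protein nidogen, had 8.41, 8.45 and 8.60 on the PA-rich diet, against 10.31, 10.50 and 10.26 on the control diet, a fall of 1.87 (SE 0.13, adjusted p = 2.35e-09) with no overlap. The collagen IV chains of all basement membranes, Col4a1 and Col4a2, changed by -1.19 and -1.59. The chains Col4a5 and Col4a6 were instead among the rises (0.43 and 0.32), with the epithelial laminin chain Lama3 (0.41, and 0.24 without control replicate 3), of which another probe set had the opposite sign without a call. Among 18 interstitial matrix genes 10 fell and 2 rose, and 8 fell and 1 rose without control replicate 3. Fibronectin, Fn1, changed by -1.52 and Col5a2 by -1.73. The main fibrillar collagens did not pass the test with all 3 control arrays, with Col1a1 at -1.52 (adjusted p = 0.121). Col3a1 had 7.34, 8.89 and 9.51 on the PA-rich diet, against 11.11, 10.29 and 8.51 on the control diet. Its change was -1.39 (SE 0.98, adjusted p = 0.329). The groups overlapped only through control replicate 3, and all PA-rich arrays lay below control replicates 1 and 2. Of all genes tested 8.3% fell and 13.8% rose. Of 20 proteases and inhibitors, 8 fell (40%) and 3 rose (15%), or 10 and 3 without control replicate 3. The largest falls were those of the metalloprotease Adam12 (-1.87) and the inhibitors Timp3 (-1.84) and Timp2 (-1.60). Adam8 and the plasminogen activator Plau rose (0.60 and 0.48), Plau by 0.27 without that array.

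Several of the largest falls belonged to none of these groups. Scn3a, a voltage-gated sodium channel, had the largest fall of the named genes, with 6.46, 6.72 and 6.48 on the PA-rich diet, against 9.58, 9.57 and 9.18 on the control diet (change -2.89, SE 0.20, adjusted p = 2.35e-09). Olfm1, a secreted olfactomedin, changed by -2.41, and Clic5, an intracellular chloride channel protein, by -2.37. Galnt15, which starts mucin-type sugar chains, had 6.98, 7.91 and 7.76 on the PA-rich diet, against 10.13, 10.32 and 9.84 on the control diet (change -2.55, adjusted p = 5.31e-07). Mrc1, the mannose receptor of macrophages and lymphatic endothelium, had 7.44, 7.76 and 7.28 on the PA-rich diet, against 9.70, 9.89 and 9.69 on the control diet, and changed by -2.26 (adjusted p = 3.28e-09). Of 9 macrophage genes tested, 3 fell in both fits, the others being Cd14 (-0.73) and Cd68 (-0.50), while Csf1r, the defining growth factor receptor of macrophages, was at 0.01 (adjusted p = 0.913) and Adgre1, Cd163, Lyz2 and Aif1 were dim. Saa3, an acute-phase protein, spread widely, with 7.13, 6.17 and 6.10 on the PA-rich diet, against 8.98, 9.73 and 8.00 on the control diet (change -2.44, SE 0.58, adjusted p = 0.00394). Fgl2, a fibrinogen-like prothrombinase, the adaptor Gab2 and the matricellular protein Sparcl1 changed by -2.20, -2.17 and -2.08. Hmox1, which breaks down haem, had 9.29, 9.49 and 9.18 on the PA-rich diet, against 10.99, 10.84 and 10.80 on the control diet, a fall of 1.56 (adjusted p = 1.99e-10).

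Genes of the outer epidermis rose together. Of 26 cornified envelope and barrier genes tested, 17 rose and 0 fell (median 0.54), and 16 rose without control replicate 3 (median 0.57). Sdr9c7, a dehydrogenase that processes barrier ceramides, had 9.31, 9.25 and 9.27 on the PA-rich diet, against 7.55, 7.28 and 7.51 on the control diet. All PA-rich arrays lay above all control arrays, and the rise was 1.83 (SE 0.13, adjusted p = 1.8e-09). Other genes of barrier lipid metabolism rose with it: the lipoxygenase Alox12b by 1.45, the fatty acid elongase Elovl4 by 1.02, the ceramide synthase Cers3 by 1.03, the lipid transporter Abca12 by 0.95 and the epidermal ceramidase Acer1 by 1.29. Among the proteins of the envelope, Sprr1b had 9.81, 9.75 and 10.17 on the PA-rich diet, against 8.33, 8.72 and 8.93 on the control diet (change 1.25, adjusted p = 9.08e-07), and Cnfn, cornifelin, and the cross-linking enzyme Tgm3 rose by 1.34 and 1.00. Sprr2d rose by 1.52, with 8.33, 8.40 and 8.27 on the PA-rich diet, against a wider spread of 7.48, 5.81 and 7.16 on the control diet. The late envelope proteins Lor and Ivl did not pass the test: Lor, loricrin, had 8.07, 9.32 and 9.36 on the PA-rich diet, against 9.06, 8.61 and 7.84 on the control diet, with overlapping groups (change 0.41, adjusted p = 0.759, and 0.08 without control replicate 3), and Ivl was at 0.20 (adjusted p = 0.286).

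Keratin and desmosome genes rose in part. Of 22 keratinocyte genes 9 rose and 0 fell, or 6 and 0 without control replicate 3, and of 19 hair follicle and hard keratin genes 8 rose and 0 fell, or 6 and 0. Krt84, a hard keratin of hair, nail and tongue papillae, had 11.88, 11.86 and 12.04 on the PA-rich diet, against 10.47, 9.80 and 9.47 on the control diet, the largest named rise at 2.02 (SE 0.18, adjusted p = 3.68e-08) and 1.79 without control replicate 3. Krt35 and Krt36 rose by 1.42 and 1.16, and Hoxc13, a transcription factor that drives hard keratin genes, by 0.95. Krt6b, a keratin of stressed and hair follicle epithelium, had 12.28, 12.17 and 12.36 on the PA-rich diet, against 11.38, 11.02 and 10.30 on the control diet, and its change of 1.37 became 1.07 without control replicate 3. The desmosomal cadherins of upper layers, Dsg1a and Dsc1, rose by 1.16 and 1.37. The basal layer genes Krt5, Krt14 and Trp63 did not pass the test, at 0.16, 0.07 and 0.18, and Krt15 was at 0.05. Without control replicate 3 these were at -0.01, 0.02, 0.15 and 0.11. Averaged over the 22 keratinocyte genes, the PA-rich arrays stood at 11.49 to 11.57 and the control arrays at 10.87 to 11.23. The median change of these genes was 0.25, and 0.13 without control replicate 3. Over the 21 endothelial genes the PA-rich arrays stood at 7.89 to 8.10 and the control arrays at 8.89 to 9.45. The part that a shift in the mix of these cells had in either result was not tested. Ly6g6c, a member of the Ly6 family, 2310011E23Rik and Plac8 rose by 1.36, 1.30 and 1.57.

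Genes of the interleukin-1 and EGF families rose more often than they fell, and which cells made these transcripts was not tested. Of 13 genes of the interleukin-1 family and its receptors, 7 rose and 0 fell, and 8 rose without control replicate 3. Il33, an alarmin held in the nucleus of epithelial and endothelial cells, had 8.14, 7.82 and 8.11 on the PA-rich diet, against 6.41, 6.30 and 6.24 on the control diet (change 1.70, SE 0.16, adjusted p = 4.86e-08). Il1f9, the ligand also called IL-36 gamma, had 10.56, 10.77 and 10.82 on the PA-rich diet, against 9.75, 9.67 and 9.42 on the control diet (change 1.10, adjusted p = 7.69e-08). Il18 rose by 0.90, Il1r2, the decoy receptor, by 0.87, and Casp1, which cleaves pro-interleukins, by 0.83, while Il1b was at 0.38 (adjusted p = 0.0575). Of 16 genes of the EGF family, its receptors and its feedback inhibitors, 8 rose and 2 fell, and 7 and 2 did so without control replicate 3. The ligands led: Ereg, epiregulin, had 8.00, 7.82 and 8.49 on the PA-rich diet, against 6.54, 6.78 and 6.34 on the control diet (change 1.55, adjusted p = 6.05e-05), and Hbegf and Epgn rose by 0.58 and 0.48. The falls were of the feedback inhibitors Spry4 (-1.11) and Dusp4 (-0.96), whereas Dusp6, another phosphatase of the pathway, rose by 0.48. Lgi2, a secreted leucine-rich repeat protein, had 8.12, 8.13 and 8.55 on the PA-rich diet, against 6.77, 6.73 and 7.11 on the control diet, a rise of 1.40 (adjusted p = 2.4e-07).

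Enzymes of cholesterol synthesis were higher by smaller amounts. The pathway turns acetyl units into squalene and sterols, and its genes are switched on together by SREBP2, which acts with the CCAAT-binding factor NF-Y. Of 22 genes tested, 14 rose and 2 fell (median 0.36), and 12 rose and 2 fell without control replicate 3 (median 0.33). Sqle, the squalene epoxidase, had 9.02, 9.36 and 9.23 on the PA-rich diet, against 8.50, 8.37 and 8.55 on the control diet (change 0.73, SE 0.09, adjusted p = 5.19e-06). Fdps, which makes farnesyl pyrophosphate, had 8.81, 8.78 and 8.88 on the PA-rich diet, against 8.32, 8.34 and 8.22 on the control diet (change 0.53, adjusted p = 1.18e-05). Neither gene's groups overlapped. Idi1, Mvd, Lss and Nsdhl, further enzymes of the route, rose by 0.54, 0.51, 0.47 and 0.35. Cyp51 and Sc5d rose by 0.41 and 0.55, though each had another probe set with the opposite sign and no call. The genes that fell were Insig1, which holds SREBP2 back, at -0.83 (adjusted p = 0.000526), and the cholesterol exporter Abcg1, at -0.91 (adjusted p = 0.00247). Insig2, a gene of the same family as Insig1, was instead among the 14 rises with all arrays, at 0.32. Insig1 had 9.83, 9.78 and 9.79 on the PA-rich diet, against 10.39, 10.34 and 11.15 on the control diet, of which control replicate 3 was the highest, and it stayed called at -0.57 without it. Hmgcs1 was dim.

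The 120 bases before the start of 4 of these genes, from RefSeq on GRCm38, are shown because the enzymes rose together in both fits and share a promoter motif. Idi1 is on the + strand at chr13:8885486-8885605, Mvd on the - strand at chr8:122443423-122443542, Lss on the + strand at chr10:76531485-76531604 and Nsdhl on the + strand at chrX:72918401-72918520. Each is written 5′ to 3′ along the gene, and capitals mark CCAAT or its reverse complement ATTGG.
Idi1: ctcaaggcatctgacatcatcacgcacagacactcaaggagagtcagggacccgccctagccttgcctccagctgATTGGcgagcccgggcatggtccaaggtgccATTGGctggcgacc
Mvd: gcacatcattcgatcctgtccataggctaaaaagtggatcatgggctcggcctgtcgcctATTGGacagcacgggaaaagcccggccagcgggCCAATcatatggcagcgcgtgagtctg
Lss: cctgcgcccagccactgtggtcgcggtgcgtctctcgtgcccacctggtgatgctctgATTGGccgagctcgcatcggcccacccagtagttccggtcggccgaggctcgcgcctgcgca
Nsdhl: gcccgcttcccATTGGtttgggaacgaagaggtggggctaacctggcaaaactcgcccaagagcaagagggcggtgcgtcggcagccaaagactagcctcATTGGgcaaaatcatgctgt
Within these windows the motif occurred 2 times in Idi1, 2 in Mvd, 1 in Lss and 2 in Nsdhl. The motif CCAAT was searched on both strands of the 250 bases before each RefSeq start, with 1 chromosome left out. The search was chosen after the values were seen. Of the cholesterol genes that rose, 12 of 14 had a promoter sequence, and 11 of these 12 (91.7%) held the motif. It was also held by 4 of the 5 others with a promoter (80.0%) and by 10133 of the 27025 genes searched (37.5%). A strict sterol regulatory element, TCACNCCAC, was in 0 of the 17 cholesterol promoters and in 1.22% of all. A match describes letters and is no evidence of binding.

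Other lipid genes moved in both directions. Of all genes tested 13.8% rose and 8.3% fell, or 10.4% and 8.71% without control replicate 3. Of fatty acid synthesis genes 26.3% rose and 10.5% fell, of uptake genes 29.2% and 16.7%, and of sphingolipid genes 29.2% and 20.8%. The share of falls in fatty acid synthesis was thus near that over all genes. Of 19 genes of fatty acid synthesis, elongation and desaturation 5 rose and 2 fell, or 7 and 3 without control replicate 3, with the malic enzyme Me1, a source of NADPH for lipid synthesis, at 9.98, 10.11 and 10.08 on the PA-rich diet, against 9.37, 9.29 and 9.19 on the control diet (change 0.77, adjusted p = 4.07e-07). Scd1, the desaturase that acts on palmitoyl and stearoyl chains, rose by 0.33 (adjusted p = 0.0159). Of 24 uptake, storage and oxidation genes 7 rose and 4 fell, or 5 and 3 without control replicate 3. Fabp4, a fatty acid carrier of adipocytes and capillary endothelium, had 7.98, 9.28 and 8.84 on the PA-rich diet, against 10.33, 10.54 and 9.67 on the control diet (change -1.48, adjusted p = 0.00339), and Angptl4, a lipase inhibitor induced by fatty acids, fell by 0.96. The epidermal carrier Fabp5 rose by 0.52 (0.30 without control replicate 3), and Cpt1a, the gate of mitochondrial oxidation, rose by 0.34 but was not called without control replicate 3 (adjusted p = 0.173). Cd36, Pdk4, Lpl and Ppara were dim. Among 24 sphingolipid genes 7 rose and 5 fell, or 5 and 4 without control replicate 3: the ceramide genes Acer1 and Cers3 were the largest rises, and the sphingosine kinase Sphk1 (-1.23) and the endothelial receptor S1pr1 (-1.68) were the largest falls.

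Myelin and Schwann identity genes gave few calls, whereas repair and axon guidance genes gave calls in both directions. Of 8 myelin genes tested, 0 passed the test in limma in either fit, although 3 had an unadjusted p below 0.05 with all arrays and 0 without control replicate 3. Mbp, the myelin basic protein, was at -0.03 and Pmp22 at -0.31 (adjusted p = 0.0646), or -0.08 without that array (adjusted p = 0.502). Of 11 Schwann identity genes, Erbb3 alone rose (0.38, adjusted p = 0.000196), and Sox10 and Ngfr were at 0.04 and 0.21, or -0.07 and 0.26 without the array. Gap43, a growth-cone protein of regrowing axons and repair Schwann cells, fell in both fits, with 8.98, 9.22 and 8.96 on the PA-rich diet, against 10.70, 10.71 and 10.57 on the control diet (change -1.61, adjusted p = 1.2e-07). Of 13 repair Schwann cell genes 3 rose and 2 fell, and the 3 rises, Gdnf, Lif and Clcf1, were not called without control replicate 3. Among 26 axon guidance genes 6 rose and 6 fell, or 7 and 9 without that array. Over all genes tested, 13.8% rose and 8.3% fell with the array, and 10.4% and 8.71% without it. Sema4d, a membrane semaphorin, had 10.42, 10.43 and 10.33 on the PA-rich diet, against 9.43, 9.35 and 8.95 on the control diet (change 1.15, adjusted p = 1.17e-08), while Ntn1, netrin-1, and Plxnd1, a semaphorin receptor of endothelium, fell by 1.23 and 1.05. Mouse Egr2 was at -0.23 (adjusted p = 0.141), and -0.04 without control replicate 3. Another Egr2 probe set had the opposite sign without a call, at 0.09 (adjusted p = 0.504). Egr1, Egr3 and Gal, at 0.01, 0.10 and -0.04, did not pass the test either.

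Hypoxia, respiration and cell cycle lists gave fewer calls without control replicate 3. Rises over all genes tested were fewer too, at 13.8% with that array and 10.4% without it. With it, 33.3% of hypoxia and glycolysis, 18.5% of oxidative phosphorylation and 10.3% of cell cycle genes rose. Of 24 hypoxia and glycolysis genes 8 rose and 1 fell, but 4 and 1 without the array, and of 27 oxidative phosphorylation genes 5 rose, but 2 without it. Cell cycle genes had 3 rises of 29 (Plk1, Rrm2 and Mcm2), and 0 without it in limma, where 4 had an unadjusted p below 0.05. Of 23 ribosomal protein genes 0 were called in limma in either fit, with 6 at an unadjusted p below 0.05, and 0 without the array. Egln3, a prolyl hydroxylase induced by hypoxia, kept its call, with 10.79, 10.84 and 10.72 on the PA-rich diet, against 10.10, 10.31 and 9.38 on the control diet (change 0.86, and 0.58 without the array). Of 23 Wnt genes 10 rose and 1 fell, or 6 and 1 without the array, with the ligand Wnt4 at 0.61 and the endothelial receptor Fzd4 at -0.55 as the largest in each direction. Of 23 TGF-beta and BMP genes 4 rose and 7 fell, or 3 and 6 without the array, with Tgfb3 (-1.27) and the endothelial co-receptor Eng (-1.10) as the largest falls.

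The diet change with shEGR2_38.9 was set against that with shEGR2_40.9 by a contrast of the 2 changes, which tests the difference itself. In this difference 446 genes (3.77%) were called higher and 214 (1.81%) lower with shEGR2_38.9. Few vessel genes passed this test: Pecam1 changed by -1.62 with shEGR2_38.9 and -1.05 with shEGR2_40.9 (adjusted p of the difference = 0.311), and Prox1 by -2.04 and -2.39 (adjusted p = 0.747). Of the 21 endothelial genes, Flt1 was called higher in the difference and 0 lower, and of the 17 lymphatic genes Thy1 was called lower. Without control replicate 3, Eng, Cldn5 and Esam were also called lower in it, with differences of -0.82, -0.63 and -0.68. The contractile genes Myh11, Mylk, Myl9 and Acta2 were called lower in it. Myh11 was 10.06 ± 0.34 on the PA-rich diet and 9.83 ± 0.14 on the control diet with shEGR2_40.9 (SD, n = 3), a change of 0.23, and the difference between hairpins was -3.06 (SE 0.50, adjusted p = 0.00059). For Mylk the difference was -2.74 (adjusted p = 6.81e-05), and for Crispld2 it was -2.68 (adjusted p = 0.00159). Scn3a, Reln, Mrc1 and Nid1 fell with both hairpins, and their differences of -0.30, -0.14, 0.08 and 0.00 did not pass the test.

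Barrier genes separated the hairpins too, with 13 of 26 called higher in the difference and 0 lower, or 14 and 0 without control replicate 3. Sdr9c7 changed by 1.83 with shEGR2_38.9 and -0.11 with shEGR2_40.9, a difference of 1.94 (SE 0.18, adjusted p = 2.39e-06). Its level with shEGR2_40.9 was 9.12 ± 0.17 on the PA-rich diet and 9.23 ± 0.03 on the control diet, and with shGAL 9.45 ± 0.05 and 9.12 ± 0.29 in the same order of diets (SD, n = 3). With shEGR2_38.9 the PA-rich level of 9.28 ± 0.03 lay among the levels of the other groups, and the control level of 7.45 ± 0.14 below them. Krt84 had the same order: shEGR2_38.9 was at 11.93 ± 0.10 on the PA-rich diet and at 9.91 ± 0.51 on the control diet, and the 6 groups of the other hairpins had means of 11.39 to 11.94. For Myh11 the order differed. The level with shEGR2_38.9 was 7.27 ± 0.47 on the PA-rich diet and 10.10 ± 0.50 on the control diet, the control level near both groups of shEGR2_40.9 (10.06 ± 0.34 and 9.83 ± 0.14), while the PLKO means were 8.11 ± 0.87 and 8.18 ± 0.63 and the shGAL means 7.01 ± 0.38 and 6.93 ± 0.35. Il33 and Ereg also differed between the EGR2 hairpins, by 1.37 and 1.76, whereas Lgi2 rose with both (1.34 with shEGR2_40.9) and differed by 0.06 (adjusted p = 0.919).

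**Figure D4:**
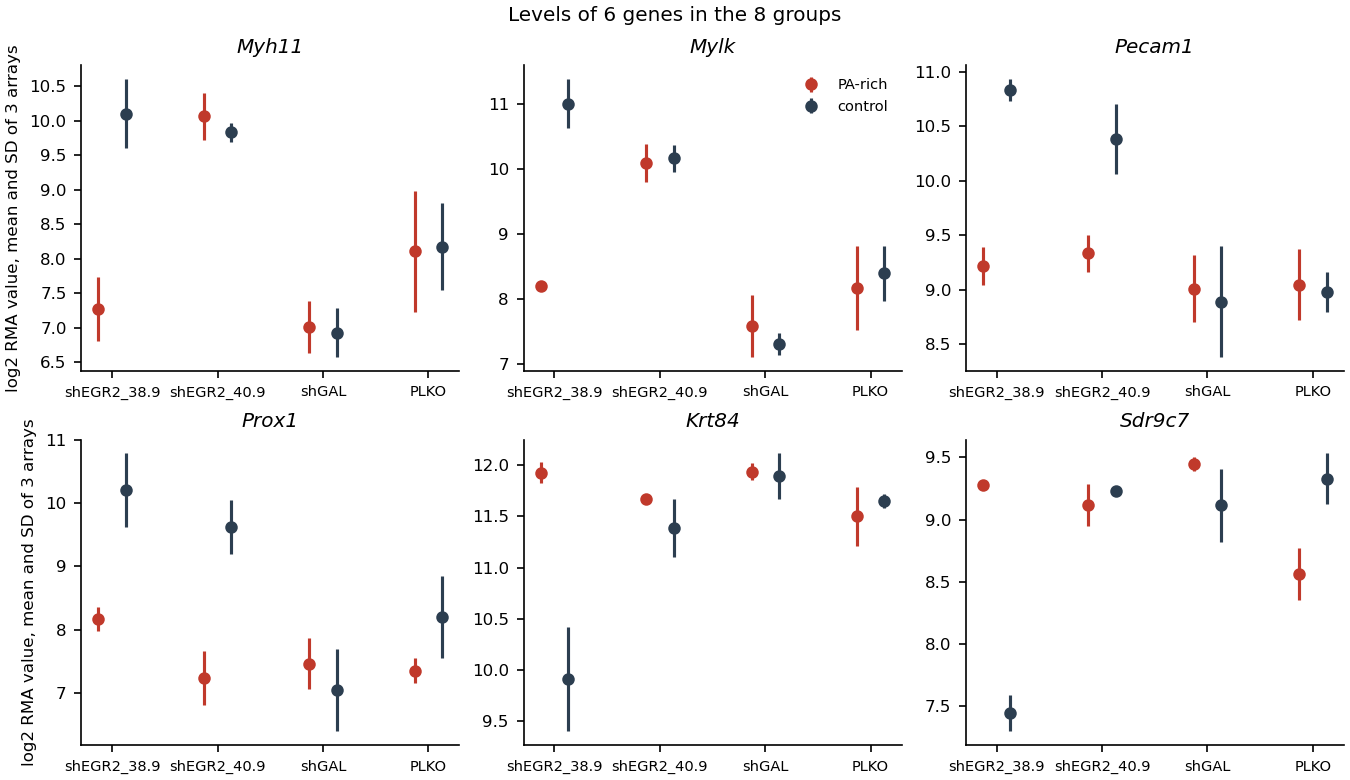
Log2 RMA values of 6 genes in the 8 groups, mean and SD of 3 arrays, with the PA-rich diet left of the control diet for each hairpin. Krt84 and Sdr9c7 are lowest in shEGR2_38.9 on the control diet, at 9.91 and 7.45, while Myh11 and Mylk are high there and in both groups of shEGR2_40.9.

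Against PLKO the contrast called 928 genes (7.84%) higher and 654 (5.52%) lower with shEGR2_38.9. Here the vessel genes did differ: 17 of 21 endothelial genes and 9 of 17 lymphatic genes were called lower in the difference, and 19 and 11 without control replicate 3. Prox1 was at -0.85 with PLKO and its difference of -1.19 did not pass the test (adjusted p = 0.0997), but did at -1.50 without control replicate 3 (adjusted p = 0.0393). Pecam1 changed by 0.07 with PLKO, a difference of -1.68 (adjusted p = 0.000374), and Cdh5 by -0.29, a difference of -1.42 (adjusted p = 0.000153). Galnt15 had the largest negative difference, -2.99 (SE 0.40, adjusted p = 2.55e-05), with a change of 0.44 with PLKO (adjusted p = 0.619). Gap43, at -0.0028 with PLKO, differed by -1.60, and Hmox1, at 0.05, by -1.61. Barrier genes differed in both arms: Sdr9c7 fell with PLKO (-0.76, adjusted p = 0.0027), as did Dsc1 (-1.14) and Alox12b (-0.82), and the differences were 2.60, 2.51 and 2.28. With shEGR2_40.9 Dsc1 and Alox12b fell as well (-0.75 and -0.56). Cholesterol genes differed as well, with 12 of 22 called higher and Insig1 called lower, or 10 higher and 2 lower without control replicate 3. Against shEGR2_40.9 those called were Mvd, Sqle and Sc5d, all higher, and Sc5d lost its call without that array (adjusted p = 0.108). Fdps changed by -0.33 with PLKO, a difference of 0.86 (adjusted p = 7.14e-06), while with shGAL and shEGR2_40.9 it changed by 0.53 and 0.63. Of the genes called for the diet with shEGR2_38.9, 399 were also called in both differences in the same direction, 273 of them higher and 126 lower. All of these comparisons share the 6 shEGR2_38.9 arrays, control replicate 3 among them, and without that array the differences called 752 genes against shEGR2_40.9 and 1671 against PLKO, in place of 660 and 1582.

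**Figure D5:**
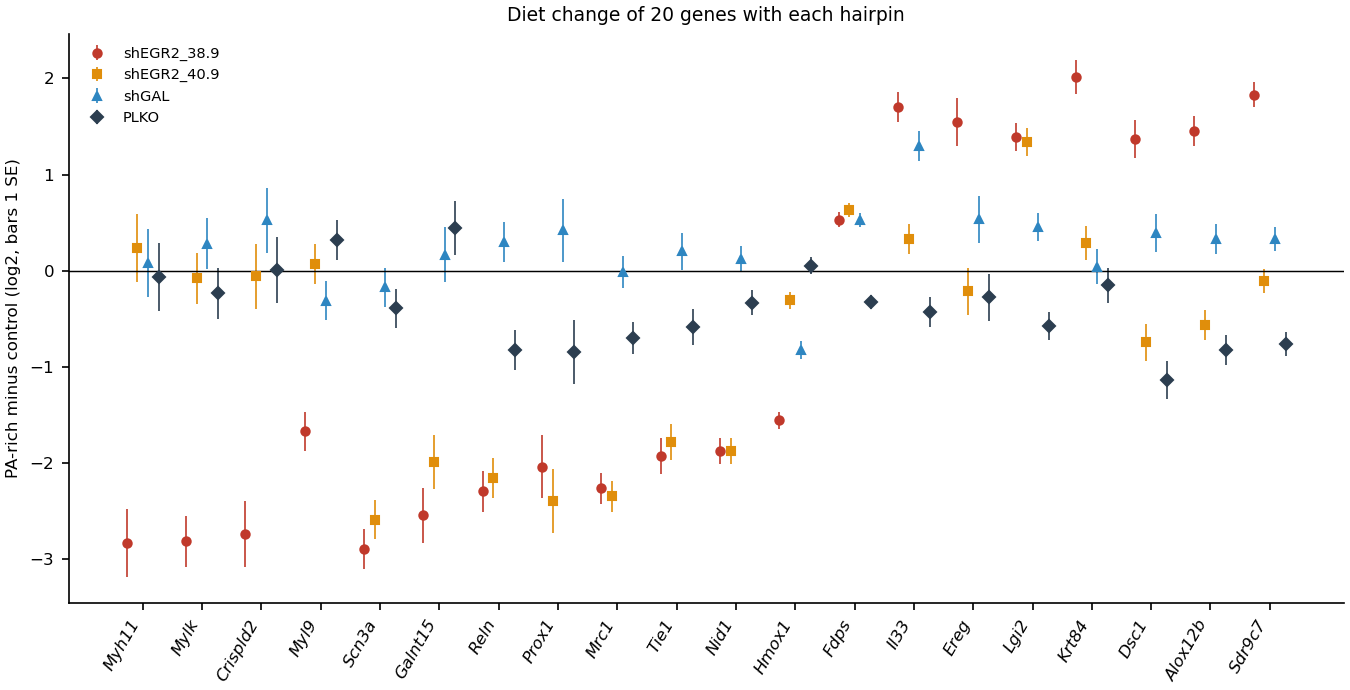
Diet change (PA-rich minus control, log2, bars of 1 SE from the model) of 20 genes with each of the 4 hairpins. Myh11 stands at -2.83 with shEGR2_38.9 and between -0.07 and 0.23 with the other hairpins, Scn3a stands at -2.89 with shEGR2_38.9 and -2.59 with shEGR2_40.9, and Sdr9c7 stands at 1.83 with shEGR2_38.9 and -0.76 with PLKO.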

How the data were processed

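Mouse RNA of SCC25 xenograft stroma was hybridised to Affymetrix mouse expression arrays, 24 in all. The deposited values are log2 probe set values that the authors made with RMA and affy, per the submitters' processing notes, whose versions are not given in the sources used here. RMA includes quantile normalization over all arrays, which makes changes relative to the array as a whole. Of 45141 probe sets, the platform annotation gave 1 symbol to 28898, several to 551 and none to 15692, and 99.28% of the symbols used were matched to RefSeq. The probe set with the highest mean stood for each of 17097 genes, and 5253 genes below the 40th percentile of means (6.27) were removed as dim. Array data have no read depth: the number of arrays and the signal over background limit precision.

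Group means of all 8 groups were fitted to 11844 genes with limma 3.58.1 (R 4.3.3), with 16 residual degrees of freedom, Benjamini-Hochberg adjustment over all genes and a threshold of 0.05. The difference between hairpins was the contrast of their diet changes. The fits were tested on simulated data. Arrays with the same replicate number were scanned together within a hairpin, and their deviations correlated by 0.12, 0.20 and 0.05 in shEGR2_38.9. The alternatives left out each array, used a replicate block, array weights, renewed quantile normalization, other filters and other probe set rules, or fitted the compared arrays only. The genes named were the 15 with the largest called rise and fall and the 8 with the largest called difference each way. Added to these were the 6 that lost most without control replicate 3, and members of 47 gene lists. The 15 rises and 15 falls also had to stay called without that array and to have the same sign in each replicate pair. Members, lists and rules were chosen with earlier results of these data known. Figures were drawn with matplotlib 3.10.9.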

Additional observations from a re-analysis of the deposited data

Results flagged for a closer look

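The diet change with shEGR2_38.9 differed from that with shEGR2_40.9 in 660 genes and from that with PLKO in 1582 genes, by the contrast of the changes in limma. All these contrasts rest on the same 6 shEGR2_38.9 arrays.

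Against shEGR2_40.9 the largest negative differences were those of the contractile genes Myh11 (-3.06), Mylk (-2.74) and Myl9 (-1.74), of the secreted proteins Crispld2 (-2.68) and Sparcl1 (-1.74), and of the signalling genes Rgs4 (-2.22), Gucy1a1 (-1.52) and Rcan2 (-1.52). The largest positive ones were those of the desmosomal cadherin Dsc1 (2.12), the lipoxygenase Alox12b (2.02), Ly6g6c (1.98), Sdr9c7 (1.94), the envelope proteins Sprr1b (1.83) and Cnfn (1.69), the ligand Ereg (1.76) and the keratin Krt84 (1.73).

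Against PLKO the largest negative differences were those of Galnt15 (-2.99), Myh11 (-2.76), Crispld2 (-2.75), Mylk (-2.58), Scn3a (-2.50), the matrix peroxidase Pxdn (-2.12), Olfm1 (-2.08) and Myl9 (-1.99). The largest positive ones were those of Sdr9c7 (2.60), Dsc1 (2.51), the hair follicle protein Tchh (2.45), Alox12b (2.28), Krt84 (2.17), the serpin Serpinb3a (2.16), Il33 (2.13) and Ly6g6c (2.12). Tchh itself was not called for the diet with shEGR2_38.9 (0.53, adjusted p = 0.165) and stood at -1.92 with PLKO (adjusted p = 0.000559).

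Probe sets without a single gene symbol, which no comparison above used, also carried signal: 1481 of 8105 tested (18.3%) passed the threshold for the diet with shEGR2_38.9, 846 higher and 635 lower, against 71 with PLKO. The share among 18937 probe sets with a symbol was 21.2%.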

How the results depend on the processing

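The 30 named genes with the largest changes kept their direction and call in all 504 alternative values. They had been picked among genes that stay called without control replicate 3, so their call in that setting was fixed by the choice. The named differences from shEGR2_40.9 and PLKO kept direction and call in 362 of 362 and 366 of 366. Of 5249 values for the 312 list members called, 4560 kept the call, 689 lost it and 0 turned round. The count of genes called for the diet was 1295 when only the 6 arrays compared were fitted, with 634 higher, and leaving out 1 array gave 1090 to 2225 higher. The lowest of these was without PA-rich replicate 3 and the highest without control replicate 1. The difference from shEGR2_40.9 called 431 genes when only the arrays compared were fitted and 1294 with array weights, of which 819 were higher and 475 lower, the weight of control replicate 3 being 0.096. Its lower calls numbered 128 when only the arrays compared were fitted, 329 when control replicate 3 was left out of that fit as well, and 136 to 288 when 1 array was left out. Higher calls in the difference from PLKO ranged over 602 to 1152 when 1 array was left out. Renewed quantile normalization put the share of higher calls at 57.9% in the difference from shEGR2_40.9 (57.1% without control replicate 3 as well), in place of 67.6%. With a replicate block, scan batch as the block called 2827 genes for the diet and the replicate pair 2826. The same blocks called 765 and 734 genes in the difference from shEGR2_40.9 and 1749 and 1701 in that from PLKO. The values that turned sign were all near 0. Hnrnpab was at -0.0069 without control replicate 3, whether all groups or only the arrays compared were fitted (range with 1 array left out -0.0069 to 0.67), and at -0.0213 with quantile normalization renewed as well. In that last setting Gpx1 was at -0.0034, Egr1 at -0.0037 and Gal at 0.0064. Egr1 was at -0.0403 with renewed quantile normalization alone, and Gal ranged over -0.0894 to 0.0041 with 1 array left out, the highest without PA-rich replicate 3. The causes were not tested. A filter at the 60th percentile left no lymphoid gene to summarise. The signal of dim genes limits what can be said of S100b, Foxd3 and other absent calls.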

Other observations

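Antiviral genes split in direction. Of 21 interferon response genes tested, 5 rose (23.8%) and 3 fell (14.3%), with the same counts without control replicate 3. The oligoadenylate synthetases Oas3, Oasl2 and Oas2, which sense double-stranded RNA or resemble its sensors, rose by 0.78, 0.67 and 0.57, whereas Rsad2 (viperin) and Oasl1 fell by 1.59 and 1.28. Rsad2 had 10.71, 10.72 and 10.41 on the PA-rich diet, against 12.32, 12.29 and 11.98 on the control diet. Mx1, Irf7 and Cxcl10 did not pass the test, at -0.17, -0.12 and -0.16. Among 21 inflammatory genes 4 rose and 7 fell, or 2 and 8 without control replicate 3: the adhesion molecules of activated endothelium, Selp and Sele, fell by 1.21 and 0.93, the pentraxin Ptx3 fell by 1.74, and Il24, a cytokine of keratinocytes, rose by 0.95. Of the inflammatory genes 19% rose and 33.3% fell. Of 13 chemokines 2 rose (15.4%) and 3 fell (23.1%), or 1 and 2 without that array. Over all genes tested 13.8% rose and 8.3% fell, or 10.4% and 8.71% without it. The share of chemokine rises was thus near that over all genes. Ccl20, an epithelial chemokine, rose by 0.76 and Ccl5 fell by 1.02, while the keratinocyte chemokine Ccl27a fell by 1.56. Of its other probe sets 1 fell by 1.03 (adjusted p = 2.13e-07), and the rest, at -0.20 and 0.04, were not called.

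Stress genes were called in both directions. Of 27 endoplasmic reticulum and integrated stress genes 4 rose (14.8%) and 3 fell (11.1%), or 3 and 4 without control replicate 3. These shares were near those over all genes tested, of which 13.8% rose and 8.3% fell. Chac1, a glutathione-degrading target of the integrated stress response, had 6.98, 7.23 and 7.08 on the PA-rich diet, against 8.52, 8.75 and 7.91 on the control diet (change -1.30, adjusted p = 0.000129), and Atf4 and Trib3 were at -0.06 and -0.13 without a call. The serine synthesis enzymes Phgdh and Psat1 rose by 0.81 and 0.39. In the list of 22 antioxidant genes 7 rose and 2 fell, and 4 and 3 did so without control replicate 3, with the glutathione transferase Gsta2 as the largest rise (1.08) and Hmox1 as the largest fall. Klf2, a factor of flow-exposed endothelium, fell by 0.90. It was the 1 of 26 immediate early genes called lower in both fits, while 5 rose, or 2 without control replicate 3. Markers of other cells were sparse. Of 6 lymphoid genes and 5 neutrophil and mast cell genes tested, 0 were called in limma in either fit, with 2 and 1 at an unadjusted p below 0.05 and 0 in each without control replicate 3. Of 9 skeletal muscle genes 2 rose (1 without that array), Ryr1 (0.49) and Tnni2 (0.31, not called without control replicate 3), while Myh1, Myh2, Myh4 and Acta1 were dim. Of 6 fibroblast genes, Dcn and Ccdc80 rose by 0.44 (0.26 without control replicate 3) and 0.45, and Thy1 and S100a4 fell by 0.91 and 0.53.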
